A study of Danio rerio with 697 samples.

Results

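Beta cells of control larvae were described here from all but 8 of the control wells of plate 1, each of which received 1 sorted event. The wells were chosen by their own counts: a well was kept when it had at least 200 detected genes, more than 1000 counts on the insulin gene *ins* and at most 40% of its counts on the 13 mitochondrially encoded protein genes. Of the 8 wells left out, 6 missed the *ins* limit alone. The whole series holds 697 wells, 4 of them of no condition, and 540 wells of its 3 groups pass the same limits. The study profiled beta cells of zebrafish larvae with Smart-seq2, a full-length method that amplifies the polyadenylated RNA of single cells, to follow cells driven into calcium overload by capsaicin (csn). The control larvae carried *Tg(ins:Kaede)*, in which the insulin promoter drives a fluorescent protein, and lacked the csn-gated channel *Tg(ins:TRPV)* of the treated groups. They too received csn for 48 h, starting at 3 dpf (days post fertilization) and ending at 5 dpf, so the baseline described here is that of csn-exposed larvae without the channel. Pancreatic regions of several larvae were pooled, dissociated with trypsin and Dispase II at a temperature above that of the fish water, and sorted as live (calcein-stained) and Kaede-positive, so that the gate itself rests on the activity of the insulin promoter.

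Beta cells make insulin as a preprohormone that enters the endoplasmic reticulum, is folded and cut there and in the secretory granule, and is released when glucose metabolism depolarizes the cell. In the zebrafish larva they form the core of the first islet, next to the alpha cells that make glucagon and the delta cells that make somatostatin. Pdx1 is a homeodomain factor that binds the insulin promoter, and secretogranin III (scg3) is a protein of the granule wall.

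No label names the larva behind a cell, so the control group is 1 sample of pooled larvae on 1 plate, and every spread below is a spread between wells of that sample with no replicate check. Counts on genes per well ranged from 171420 to 1060578, with a median of 659446. The share of mitochondrial counts ranged from 1.2 to 39.6%, with a median of 10.6%. Spike-in RNAs added to each well gave 2 to 7386 reads with a median of 684, and 71 wells had fewer than 100. Smart-seq2 reads carry no molecular identifiers, so intervals on read counts given here cover counting error only. Intervals beside a share of wells are exact 95% binomial intervals over the wells. They take the wells as independent, although all come from 1 pool on 1 plate, and do not cover a spread between larvae or pools. On the same plate a well labelled NC held 3617 counts on genes, spread over 981 genes, and 8.68% of them were on *ins*.

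The limits that chose the wells lie in sparse parts of the distributions. The wells with the fewest *ins* reads inside the limit had 1341 and 2653, and the nearest well outside it had 780. The other control wells below the limit had 230 to 557 *ins* reads, a range that includes the read number of the NC well. The highest mitochondrial share inside was 39.6%, and 2 control wells outside had 43.2 and 76.9%. No control well fell under the limit on detected genes, and the lowest count among the members was 622.

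In the pooled counts *ins* stood far above any other gene, and the values that chose the wells are given as a description. *ins* (ENSDARG00000035350) lies on the plus strand of chromosome 5 of GRCz11, chr5:37854685-37857696. It took 12371270 of 106975386 pooled counts, or 11.56% (95% Clopper-Pearson interval 11.56 to 11.57%). Per well its share ranged from 0.366 to 27.8%, with a median of 11.1% and a coefficient of variation (CV, SD over mean) of 0.465. Taken as *ins* reads over spike-in reads, in the 94 wells with at least 100 of these, the CV was 1.29. That ratio also carries the spread of the spike-ins. Over all the wells the CV was 1.28 for spike-in reads and 0.553 for *ins* reads. The middle 50% of the wells lay between 7.79 and 14.2%, 5 wells were under 2% and 9 were above 20%. *ins* was the gene with the most counts in 78.2% of the wells, and the nuclear gene with the most counts in 82.4%. In the other 29 wells that place was held by *malat1* in 10, by *hsp70.2* in 6, by *sst1.1* in 4, by *hsp90aa1.2* in 3 and by other genes in 6.

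Besides *ins*, *pdx1* and *scg3* were high in most wells and low in the rest. The further members of a list of 19 beta cell genes were each at 100 reads in fewer than 20% of the wells. They ranged from *ISL1* in 17% to *SLC30A8* in 0. *pdx1* (ENSDARG00000002779, chr24:21684189-21686706, plus strand) reached at least 100 reads in 67.9% of the wells (60.2 to 74.9%), with a median of 3343 and at most 14835 reads in them. In the remaining wells it had 6 to 29 reads, with a median of 11, beside 13 in the NC well. No well lay between 4.86 and 7.63 on the log2 scale of its reads, so the groups of wells did not overlap. *scg3* (ENSDARG00000086288, chr18:39434589-39473055, minus strand) had 200 to 18053 reads in 64.2% of the wells (56.4 to 71.5%). In the others it had 3 to 75 reads, with a median of 12, beside 5 in the NC well. Both genes were at 100 reads or more in 79 wells, 1 of them in 60 and neither in 26. The 26 wells with neither held an *ins* share with a median of 12.2%, beside 10.6% in the 79 wells with both. Their median number of genes at 100 reads was 0.703 times that of the wells with both, and the part of capture in the missing markers was not tested.

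**Figure D1:**
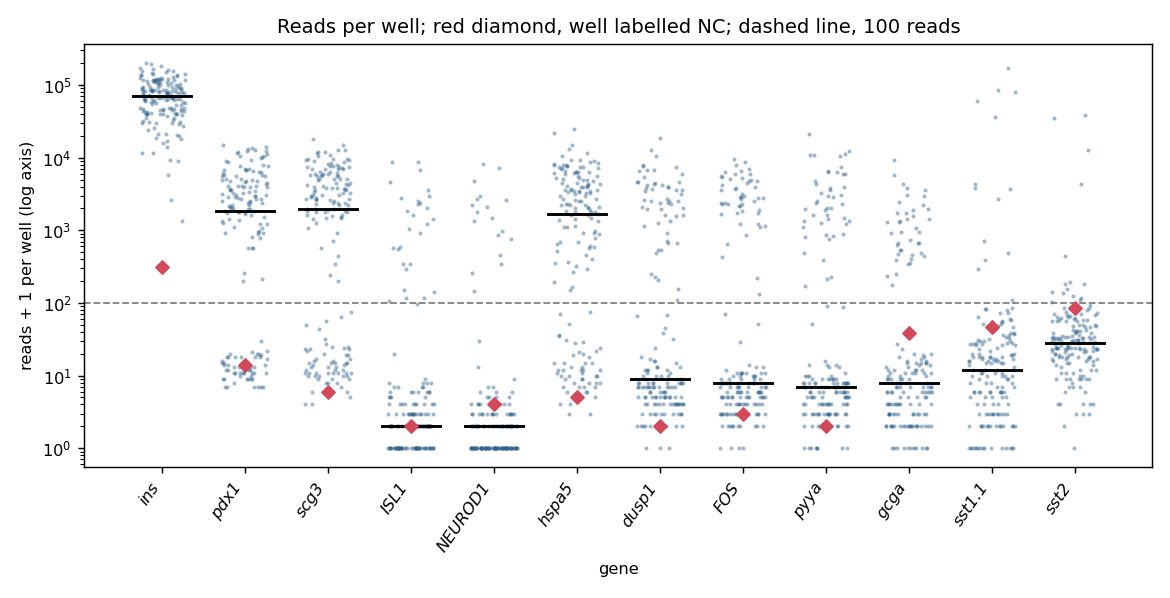
Reads per well plus 1, on a log axis, for 12 genes in the control wells (blue points), with the median as a black bar and the well labelled NC as a red diamond. Apart from *ins*, the genes have an upper and a lower group of wells, divided at 100 reads (dashed line). For *sst2* the lower group reaches up to the line, and *ISL1* and *sst1.1* also have wells close to it.

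The same division was seen in most values of the more abundant genes. Levels are given as CPM, the reads of a gene scaled to the same fixed total in every well or over the pooled wells. Over the 1015 genes with a pooled level of at least 100 CPM, 51.1% of all values per gene and well were 0, and 33.1% were between 1 and 30 reads. Only 0.991% lay between 31 and 99 reads, and the values of 100 reads or more, together 14.8% of the values, held 99.7% of the reads. Exceptions were the genes that were high in every well, such as *ins*. Others had many values in between, such as the somatostatin genes *sst2* with 56 wells and *sst1.1* with 26, and *scg5* (ENSDARG00000077045) with 17. A well is therefore counted below as expressing a gene highly when it had at least 100 reads of it, a limit chosen after the counts were seen. The 300 most abundant nuclear genes had in the NC well a median of 0.288% of their mean reads per control well. For nuclear genes at 100 reads in at least 10% but under 50% of the wells, the median read number in the remaining wells had a median of 1 over genes and was at most 39.

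Detection depended on that limit. At 1 read a well held a median of 1232 genes (range 622 to 1753) and a mean of 1232 ± 201.9 (SD), but at 5 reads a mean of 332.1 ± 108.2 and at 100 reads a mean of 226.8 ± 81.4 (range 43 to 503). In any of the wells, 19369 of 32520 genes had a read and 6941 had 100 reads. At 1 read, 39 genes were found in every well, and at 100 reads 8 were: *ins*, *malat1*, *hsp70l*, *hsp70.1*, *hsp70.2*, *hsp70.3*, *mt-cyb* and *MT-CO2*. At 100 reads 19 genes were found in at least 90% of the wells, 64 in at least 50% and 401 in at least 10%. As shares of all 32520 genes, 21.3% reached 100 reads in any well and 1.23% in at least 10% of the wells, the background for the lists below. Of the 1015 genes above, 626 were at 100 reads in fewer than 10% of the wells. For the 387 nuclear genes at 100 reads in at least 10% of the wells, the median read number in those wells was 1266 (middle 50% of genes 703 to 1801). Its Spearman correlation with the share of wells was 0.10 across these genes, which share the same wells and are not independent. Nuclear genes at 100 reads in at least 90% of the wells mostly stood above that middle range, such as *ins* (70967), *malat1* (22425) and *ptmab* (5811). Only *zgc:171772* (1641) and *hsp90aa1.1* (712.5) lay within it.

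**Figure D2:**
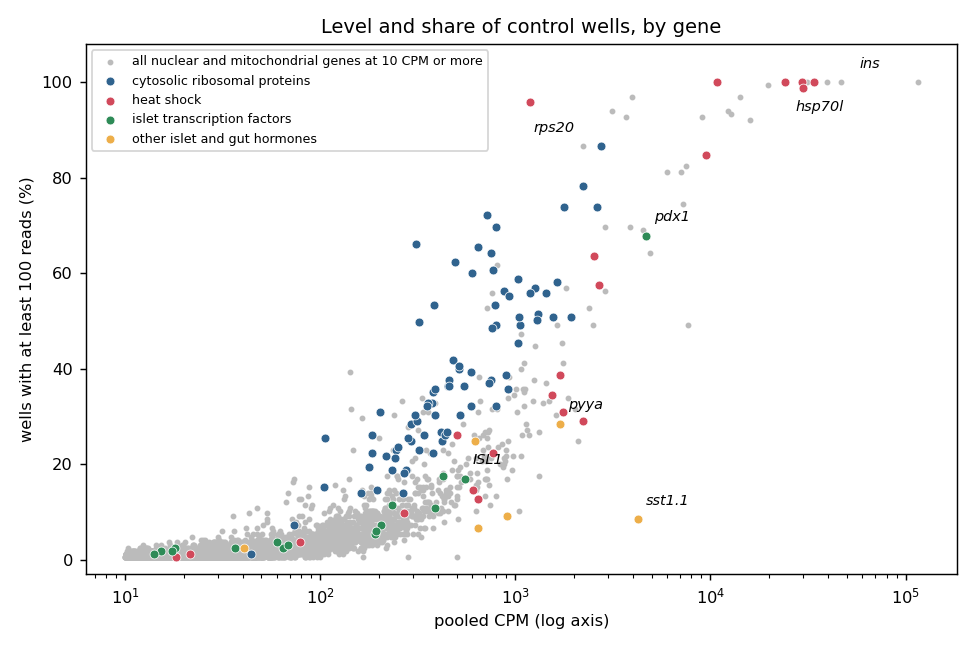
Pooled CPM (log axis) against the share of the control wells with at least 100 reads, for every gene at 10 CPM or more, with 4 gene groups in colour. Ribosomal protein genes lie along the upper edge, so that a given level was spread over many wells, and *sst1.1* lies far to the lower right, at 4230 CPM in 8.48% of the wells.

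A few genes took most of the counts. In the median well the 10 most abundant genes held 42.2% of the counts, the top 50 held 69.8% and the top 100 held 86.6%. In the median well 16 genes made up 50% of the counts, with a range of 5 to 48. The 20 nuclear genes with the highest pooled counts were *ins* (115646 CPM), the long noncoding RNA *malat1* (39374), *hsp70l* (33958), *hsp90aa1.2* (29701), *hsp70.2* (29346), *hsp70.1* (24101), the ubiquitin gene *UBB* (15907), *ppdpfb* (12812), the prothymosin gene *ptmab* (12328), *hsp70.3* (10766), *dnajb1b* (9472), ENSDARG00000079462 (7704), the glycolytic gene *gapdhs* (7458), *mcl1a* (7239), *dnaja* (7059), the thymosin gene *tmsb1* (6009), *scg3* (4873), *pdx1* (4700), *hspa5* (4505) and *sst1.1* (4230). Of these, 17 were also among the 20 highest by the median of the wells. The 3 that were not were *sst1.1* (median 18.5 CPM), ENSDARG00000079462 (median 57.9 CPM) and *hspa5* (median 2730 CPM).

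Counts grow with transcript length, so the order between genes was also taken per exon length, with the values of all genes scaled to the same sum as CPM. On that length-scaled level *ins*, with 485 exon bases, stood at 293287, followed among nuclear genes by *hsp70l* at 18145, *hsp70.2* at 15680, *ppdpfb* at 15211 and *ptmab* at 14665. *malat1*, with 7477 exon bases, moved from the 2nd to the 14th place, at 6477. *pdx1* stood at 5176 and *scg3* at 2532. The ribosomal protein gene *rps20* (6442) and *si:dkey-151g10.6* (10574) entered the 20 highest by length-scaled level, in place of *scg3* and *hspa5*.

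**Figure D3:**
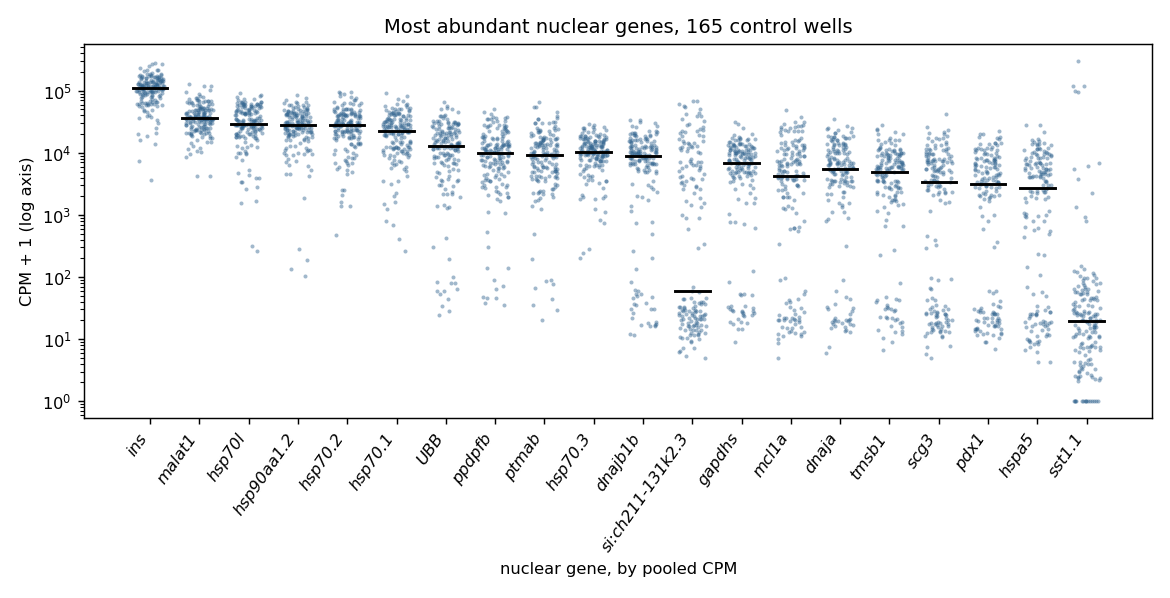
CPM plus 1 per well, on a log axis, for the 20 nuclear genes with the highest pooled CPM in the control wells; the black bar is the median. *ins*, *malat1* and the *hsp70* genes form 1 cloud of wells each. *UBB*, *ppdpfb* and *ptmab*, at 100 reads in 92.1, 93.3 and 93.9% of the wells, have a few wells far lower. From *dnajb1b* on to the right the lower group of wells is larger.

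Mitochondrial transcripts were led by subunits of the last respiratory complexes. Pooled levels were 46637 CPM for *mt-cyb*, the cytochrome b of complex III, and 31338 CPM for *MT-CO2*, a subunit of cytochrome c oxidase. *MT-CO1* had 14264 CPM and *MT-CO3* had 9108 CPM. An unnamed gene of 1683 bases on the mitochondrial chromosome (ENSDARG00000080337), which is not among the 13 protein-coding genes, had 19647 CPM. Per length, *MT-CO2* (55783) lay above *mt-cyb* (50275). Subunits of complex I were lower and found at 100 reads in fewer wells: *MT-ND5* in 75, *MT-ND2* in 51 and *MT-ND1* in 44. Across wells the mitochondrial share of the counts other than *ins* had a Spearman correlation of -0.005 with the *ins* share (all wells of 1 library pool).

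Heat shock genes were among the most abundant genes of these control cells. These genes encode chaperones that refold proteins and that cells raise under heat and other stress. Together the 24 genes of the list took a median of 15.5% of the counts of a well, from 1.51 to 36.5%, and in 70.9% of the wells they took more than *ins*. The list holds 4 genes of other compartments, the mitochondrial chaperones *HSPD1*, *HSPE1* and *HSPA9* and the chaperone *serpinh1b* of the endoplasmic reticulum, and without them the median was 15.3%. Of the 24, 22 reached 100 reads in at least 1 well, 17 in at least 10% of the wells, 9 in at least 50% and 6 in at least 90%. In any well and in 10% of wells these are 91.7 and 70.8% of the list, beside 21.3 and 1.23% of all genes. *hsp70l* had 180 to 67573 reads per well with a median of 19891, and *hsp70.2* had 320 to 55569 with a median of 16978. *hsp90aa1.2* reached 100 reads in 98.8% of the wells, *hsp90aa1.1* in 95.8% and the co-chaperone gene *dnajb1b* in 84.8%. The wells with the lowest shares had 1.51, 2.72 and 3.30%, and 96.4% of the wells lay above 5%. In the NC well *hsp70l* had 41 reads.

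The heat shock genes did not all vary together. *hsp70.1*, *hsp70.2* and *hsp70.3* lie next to each other, from position 26112780 to 26127091 of chromosome 3, and with *hsp70l* on chromosome 8 they are close copies, so the division of reads among them is uncertain. Their CPM had pairwise Spearman correlations of 0.45 to 0.73 over the wells. *hsp90aa1.1* and *hsp90aa1.2*, neighbours on chromosome 20 and also close copies, had a correlation of 0.85. Between *hsp70l* and *hsp90aa1.2* it was 0.12, and between *dnajb1b* and *hspa4a* it was -0.11. All wells share 1 sort and 1 library preparation, and the shared denominator of CPM enters each of these values. The *ins* share had a correlation of -0.16 with the heat shock share of the counts other than *ins*. Heat shock share and total counts had a correlation of -0.14.

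**Figure D4:**
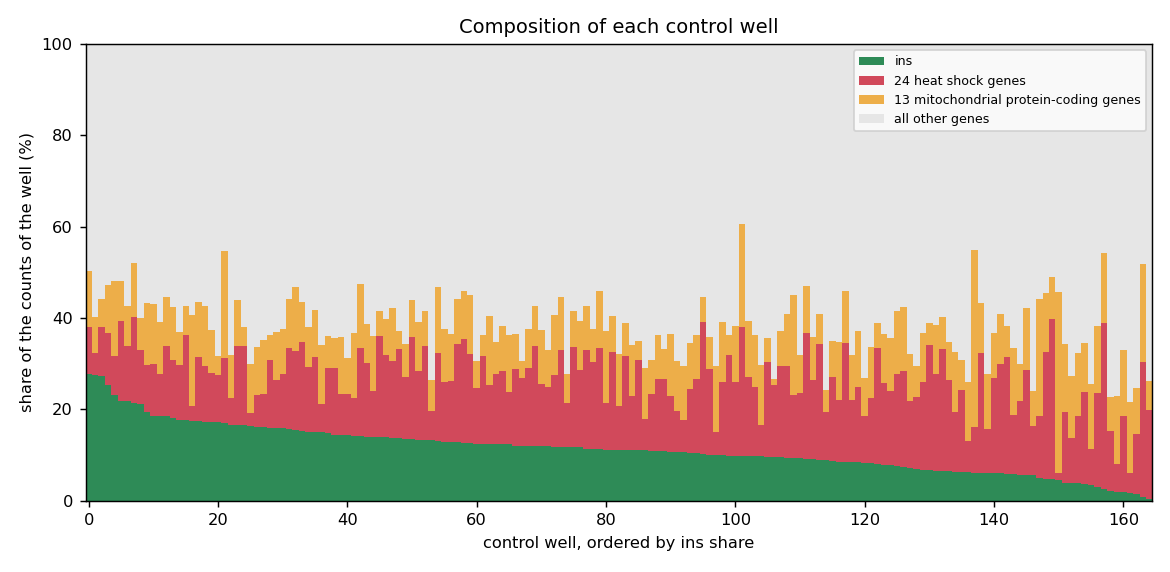
Share of the counts of each control well, ordered by *ins* share, taken by *ins* (green), 24 heat shock genes (red) and 13 mitochondrial protein-coding genes (yellow). The heat shock share ranged from 1.51 to 36.5% and the mitochondrial share from 1.2 to 39.6%, with wide spread at every *ins* share.

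Transcription factors of the islet other than *pdx1* were each high in a minority of wells. Gene names in capitals are those the name table gives for the zebrafish genes, and where paralogues share a name the one with more reads is meant. Of 47 genes on the list, 24 reached 100 reads in at least 1 well, 5 in at least 10% and *pdx1* alone in at least 50%. In any well and in 10% of wells these are 51.1 and 10.6% of the list, beside 21.3 and 1.23% of all genes. The LIM-homeodomain gene *ISL1* reached 100 reads in 28 wells (17%, 11.6 to 23.6%), with a median of 1323 and at most 8658, and had 0 to 96 in the rest. The leucine zipper gene *jdp2b* reached 100 reads in 29 wells, the bHLH gene *NEUROD1* in 18, the paired-box gene *PAX6* in 19 and *MNX1* in 12. Lower still were *FOXO1* in 10 wells, the zinc-finger gene *INSM1* in 9, *SOX4* in 6, *foxa3*, *TSHZ1* and *NKX6-2* in 4 each, *RFX6* and *hhex* in 3 each, and *NKX2-2* and *NKX6-1* in 2 each. *SOX11*, *MYT1* and *rfx3* each reached it in 1 well, as did further copies named *SOX4* and *SOX11*. *mafa*, which in mammals marks mature beta cells, had 11 reads over all wells, or 0.103 CPM (exact Poisson interval 0.0513 to 0.184). *MEIS1* had at most 52 reads in a well, and *neurog3*, *SOX9*, *NR5A2*, *HNF4A*, *HNF4G*, *FOXA2*, *pax4* and *gata4* at most 4. *PTF1A*, *sox4a*, *ascl1b* and *GATA6* had no read.

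Counted by well, 27 wells had none of the 47 factors at 100 reads, 51 had 1, 50 had 2, 27 had 3 and 10 had more. The well with the most had 7, namely *foxa3* (649 reads), *SOX11* (647), *pdx1* (575), *RFX6* (409), *hhex* (402), *jdp2b* (260) and *NKX6-1*. The same well had 5771 *ins* reads and 34845 reads of the somatostatin gene *sst2*.

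Genes of the secretory granule followed *ins* and *scg3* at a distance. Of 40 genes on the list, 27 reached 100 reads in at least 1 well, 8 in at least 10% and 3 in at least 50%. In any well and in 10% of wells these are 67.5 and 20% of the list, beside 21.3 and 1.23% of all genes. *scg5*, a chaperone of the prohormone convertase PC2, is counted as a pair of genes. ENSDARG00000032126 had 763 CPM and 100 reads in 92 wells, and ENSDARG00000077045 had 142.1 CPM and 100 reads in 65 wells. Carboxypeptidase E (*CPE*) had 865 CPM and was at 100 reads in 32 wells, *NUCB2* (nucleobindin) had 483.5 CPM in 34 wells, *pcsk1nl* 221.1 CPM in 23 wells and chromogranin A (*chga*) 230 CPM in 14 wells. The convertases that cut proinsulin were low, *PCSK2* at 81.1 CPM with 100 reads in 6 wells and *PCSK1* at 36.6 CPM in 5 wells. *SLC30A8*, the granule zinc transporter, had 7 reads over all wells, or 0.0654 CPM (exact Poisson interval 0.0263 to 0.135).

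The genes of glucose sensing and excitation were each at 100 reads in a minority of wells. Of 32 genes, 13 (40.6%) reached 100 reads in any well and 2 (6.25%) did so in at least 10%, beside 21.3 and 1.23% of all genes, and 63.6% of the wells had none of them at 100 reads. The glucose transporter gene *SLC2A2* reached 100 reads in 17 wells and pyruvate carboxylase (*PC*) in 15. The subunits of the ATP-sensitive potassium channel reached it in 3 (*kcnj11*) and 4 (*ABCC8*) wells. Of 10 genes linked to maturation, 5 (50%) reached 100 reads in any well and 2 (20%) in at least 10%. *UCN3*, a peptide of mature mammalian beta cells, reached 100 reads in 18 wells (10.9%, 6.59 to 16.7%), with a median of 1212 and at most 2743. *SYT4* reached 100 reads in 7 wells and *ERO1B* in 6. On the same list *mafa*, *SLC30A8* and *chgb* had 11, 7 and 1 reads over all wells.

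Of 22 genes that mammalian beta cells keep low, 7 (31.8%) reached 100 reads in any well and 0 did so in 10% of the wells, beside 21.3 and 1.23% of all genes, so these counts do not set the list below other genes. *LMO4* had 241.5 CPM and reached it in 12 wells. *LDHA* (127.2 CPM) and *LDHB* (93.8 CPM), which encode lactate dehydrogenase subunits, reached it in 8 wells each. The lactate and pyruvate transporter gene *SLC16A1* reached it in 1 well, and *HK1*, a hexokinase of high glucose affinity, in 0.

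Chaperones of the endoplasmic reticulum were led by *hspa5* (BiP). It reached 100 reads in 69.1% of the wells (61.4 to 76%), with a median of 3355 and at most 24491, and had 2 to 75 reads in the others, beside 4 in the NC well. Of the 37 genes on the list 34 (91.9%) reached 100 reads in at least 1 well and 10 (27%) in at least 10%. Of all genes, 21.3 and 1.23% did so. *hsp90b1* (GRP94) reached 100 reads in 58 wells, *XBP1* and *manf* in 31 each, *CALR* in 30 and *PPIB* in 28. The stress-induced factor *DDIT3* (CHOP) did so in 4 wells, *TRIB3* in 7 and *CHAC1* had no read. Of 28 genes of the translocon and signal peptidase, 26 (92.9%) reached 100 reads in any well and 6 (21.4%) in at least 10%. Among the 6 were *SEC61G* with 55 wells, *ssr4* with 29 and *DDOST* with 22. Of 26 antioxidant genes, thioredoxin (*TXN*) alone (3.85% of the list) passed 10%, with 35 wells.

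Immediate early genes, which cells raise within minutes of a stimulus, were at 100 reads in a part of the wells. Of 37 genes, 26 reached it in any well and 4 in at least 10%. Both are larger shares than those of all genes, 21.3 and 1.23%. The phosphatase gene *dusp1* reached 100 reads in 56 wells (33.9%, 26.8 to 41.7%), with a median of 2605 and at most 18473, and had 0 to 67 in the rest. *FOS* had 130 to 9485 reads in 50 wells (30.3%, 23.4 to 37.9%) and 0 to 70 in the rest. Both were at 100 reads in 22 wells, *dusp1* alone in 34, *FOS* alone in 28 and neither in 81. *JUN* followed with 22 wells, *JUNB* with 17, *ATF3* with 14, *NR4A1* with 12 and *ier2a* with 8. In all, 37 wells had none of these genes at 100 reads and 18 had 4 or more.

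Among genes of cell death and survival, *mcl1a*, an anti-apoptotic member of the BCL2 family, was at 100 reads in 74.5% of the wells (67.2 to 81%), with a median of 3942 and at most 38049, and had 3 to 70 in the rest. Its copy *mcl1b* reached 100 reads in 34 wells, and the p53 targets *CCNG1* and *rps27l* in 45 and 38. The ubiquitin ligase gene *mdm2*, another p53 target, reached it in 5 wells. Of the 26 genes, 14 (53.8%) reached it in any well and 4 (15.4%) in at least 10%, beside 21.3 and 1.23% of all genes.

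Cell cycle genes were at 100 reads in few wells each. Of 43 genes, 14 (32.6%) reached it in any well, beside 21.3% of all genes, and 1 (2.33%) in at least 10% of the wells, beside 1.23%. In 78.8% of the wells none of them was at that level. *hmgb2b*, a chromatin gene that is not restricted to dividing cells, was the gene in at least 10% of the wells, with 25 (15.2%, 10.1 to 21.5%). *mki67*, *MCM5*, *PCNA* and *AURKB* each reached 100 reads in 1 well. In 2 wells 4 genes of the list did so, and in no other well more than 2.

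Genes of the ribosome and of the nuclear part of the respiratory chain were at 100 reads in more wells. All 83 genes with names of cytosolic ribosomal proteins had reads, 82 of them reached 100 reads in at least 1 well, 80 in at least 10% and 26 in at least 50%. In any well and in 10% of wells these are 98.8 and 96.4% of the list, beside 21.3 and 1.23% of all genes. Together the 83 genes took a median of 5.16% of the counts of a well (0.532 to 13.0%). The highest were *rps20* (2739 CPM, 86.7% of the wells), *RPL19* (2613 CPM, 73.9%) and *rps27.1* (2231 CPM, 78.2%). Of 98 nuclear genes of the respiratory chain and ATP synthase 36 (36.7%) reached 100 reads in at least 10% of the wells. *COX7C* (808 CPM) did so in the most, 61.8%, followed by *ndufa4l2a* (2892 CPM) in 56.4% and *cox7b* (714 CPM) in 52.7%. Of 49 proteasome genes 7 (14.3%) reached 100 reads in at least 10% of the wells, with *PSMA3* in the most, 30 wells.

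Hormones of other islet cells were at 100 reads in 94 wells, 67 of them with 1 such gene, 18 with 2 and 9 with 3. Without *sst2*, which had 83 reads in the NC well, the number was 88 wells, 64 of them with 1 such gene, 21 with 2 and 3 with 3. *pyya* (peptide YY) reached 100 reads in 47 wells (28.5%, 21.7 to 36%), with a median of 2332 and at most 20935, and had 0 to 89 in the rest, beside 1 in the NC well. The glucagon gene *gcga* reached 100 reads in 41 wells (24.8%, 18.5 to 32.2%), with a median of 951 and at most 9204, and had 0 to 26 in the rest, beside 38 in the NC well. Both were at 100 reads in 12 wells. In the 37 wells with at least 1000 *pyya* reads the *ins* reads ranged from 29294 to 194953, and *ins* exceeded *pyya* in each of these wells. *ins* likewise exceeded *gcga* in each of the 20 wells with at least 1000 *gcga* reads. The other glucagon gene, *gcgb*, had at most 15 reads in a well, beside 12 in the NC well, and the ghrelin gene *ghrl* at most 41.

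The somatostatin genes reached far higher levels in fewer wells. *sst1.1* had at least 1000 reads in 9 wells, from 2722 to 169752, and these 9 wells held 99% of its reads. In 4 of them it exceeded *ins*. The well with 169752 *sst1.1* reads had 11745 *ins* reads, and the well nearest the *ins* limit, with 1341 *ins* reads, had 36568. A further well had 86502 reads of *sst1.1* beside 199571 of *ins*, the highest *ins* count of all members. *sst1.2* had at least 1000 reads in 9 wells, and *sst2* in 4. *sst1.1* and *sst1.2* were both at 100 reads in 8 wells. For *sst2* the limit of 100 reads divided the wells poorly, since 56 wells had between 31 and 99 reads and the NC well had 83. For *sst1.1* 26 wells lay in that range, and the NC well had 46 reads. Of 12 wells with at least 1000 reads of any somatostatin gene 11 were at 100 reads of *pdx1*, the lowest of them with 570, beside 67.9% of all the wells. The delta cell factor *hhex* was at 100 reads in 3 of them, the lowest with 402, and in no other well. Wells with *sst1.1* at that level had a median *ins* share of 6.39%, from 0.366 to 27.4%. Each well received 1 sorted event and no doublet caller was run, so 1 cell with several hormones and a pair of cells cannot be told apart.

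Markers of other cell types took 0.182% of the pooled counts over 16 lists. Of their genes 28 (14.4%) reached 100 reads in at least 1 well and 0 reached it in 10% of the wells, beside 21.3 and 1.23% of all genes. No listed acinar, melanophore, macrophage or endothelial gene reached 100 reads in any well. This allows a share of up to 1.82% of wells for each list, provided such a cell would show a listed gene at that level. The sort on Kaede and the *ins* limit had already selected against such cells. Some acinar, macrophage and endothelial symbols were also not matched. The acinar gene with the most reads, *prss59.2*, had at most 5 in a well. Among ductal genes *krt8* and *anxa4* reached 100 reads in 2 wells each, and among neural genes *STMN1* in 11. Of 10 T cell genes 2 (20%) reached it, *TOX* in 11 wells and either gene in 12. The T cell genes *lck* and *RAG1* had at most 1 read. Of 6 neutrophil genes 2 (33.3%) reached it, in 2 wells. Among erythrocyte genes, 1 well had 5 of 8 at 100 reads, and these took 9.46% of its counts. It had 53327 reads of the globin gene *hbae1.3*, where the next well had 13, beside 25804 reads of *ins*, and 473 genes at 100 reads, among the 3 highest counts of the members. Without it the genes of the 16 lists took 0.111% of the pooled counts.

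Variation between wells fell with the level of a gene, and was read against genes of like level. For 2600 genes with a mean of at least 10 CPM and a read in at least 10% of the wells, the squared CV was divided by the running median over the genes nearest in mean. The ratio reached 3 for 29 genes, or 1.12% of those assessed. The lowest of them stood at 3.04 and the highest gene below at 2.99. The largest ratios were those of *sst2* (20.8), *hbae1.3* (18.3), *sst1.1* (16.8), *hbae1.2* (10.8), *epd* (9.83), *sst1.2* (8.82), *coro1ca* (7.35), *hbae1.1* (5.58), *gpr137bb* (5.19), the myosin light chain gene *myl12.1* (5.02), *zgc:122979* (4.78), *ZDHHC16* (4.51), *TBPL1* (4.24), *CIBAR1* (4.14) and *XKR8* (4.06). In 16 of the 29 a lone well held at least 50% of the gene's summed reads, and 17 of them were at 100 reads in 5 or fewer wells. Only *epd*, *myl12.1*, *rasd4* and *CXCL14* were at 100 reads in at least 10% of the wells. For *myl12.1*, with 38 such wells and a mean of 1078 CPM, the highest well held 10.7% of the reads.

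**Figure D5:**
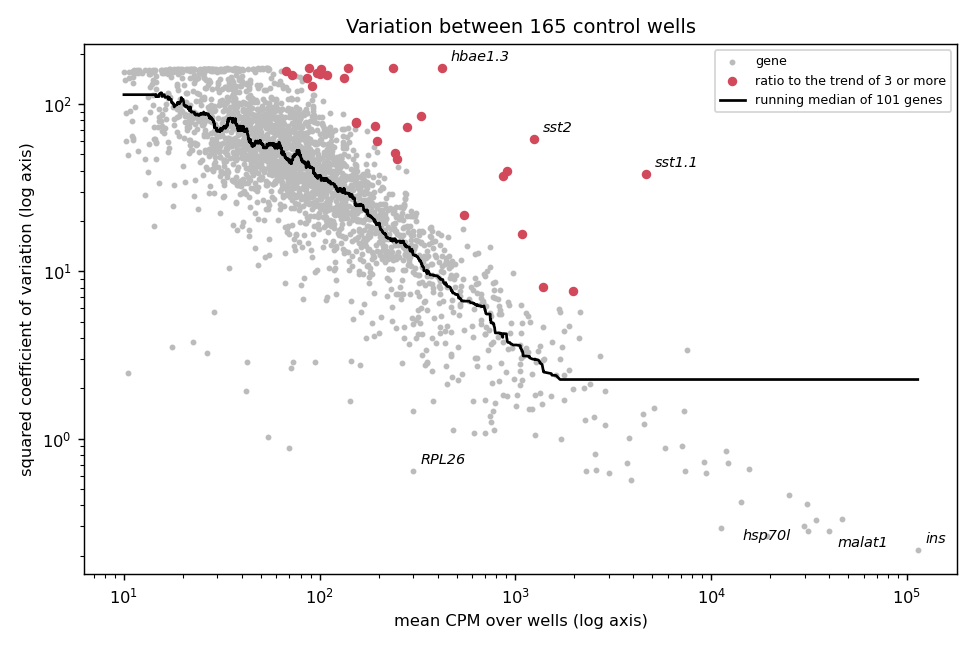
Squared coefficient of variation against mean CPM (both log axes) for 2600 genes over the control wells, with the running median (black) and the 29 genes at a ratio of 3 or more (red). The running median is flat at the right end, where *ins*, *malat1* and *hsp70l* lie below it, and the flat upper edge holds genes whose reads come from 1 well. The wells were chosen by their *ins* reads, which enters the place of *ins*.

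Among genes with a mean of at least 100 CPM the lowest ratios belonged to *RPL26* (0.049), *scg5* (ENSDARG00000077045; 0.059), *ins* (0.096), *mt-atp8* (0.10), the ferritin gene *fthl31* (0.11), the unnamed mitochondrial gene (0.12), *RPS29* (0.12), *MT-CO2* (0.12), *malat1* (0.12) and *hsp70.3* (0.13). For the most abundant of these the running median is that of genes with lower means, 2.26, which lowers the ratio. The 90 genes with a mean of at least 1000 CPM had CVs from 0.465 to 7.86. The lowest were *ins* at 0.465, the unnamed mitochondrial gene at 0.512, *MT-CO2* at 0.530, *malat1* at 0.531, *hsp70.3* at 0.542 and *hsp90aa1.2* at 0.547. The wells were chosen by their *ins* reads and mitochondrial share. The low CVs and ratios of *ins* and of the mitochondrial genes are therefore a description of the chosen wells only. With no *ins* limit the CV of the *ins* share was 0.509, and the other genes were not ranked on those wells. *RPL26* was at 100 reads in 66.1% of the wells and had at most 869 in any.

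Few of the genes assessed had more than a weak correlation with *ins*. The Spearman correlation between the *ins* share and the CPM of a gene, with *ins* left out of the denominator, was taken over the wells for 415 genes with a read in at least 50% of the wells. It had a median of 0.026, from -0.25 to 0.48, with 5 genes above 0.3 and 0 below -0.3. The 10 highest were *tmsb1* (0.48), *si:dkey-151g10.6* (0.40), *rps20* (0.36), *rpl32* (0.32), *zgc:171772* (0.30), *scg5* (ENSDARG00000077045; 0.27), *RPL26* (0.27), *RPS7* (0.26), *RPL11* (0.26) and *scg5* (ENSDARG00000032126; 0.24). The 10 lowest were *pdx1* (-0.25), *zgc:101731* (-0.23), *si:dkey-4p15.3* (-0.22), *dnaja* (-0.19), *RGS5* (-0.19), *hsp90aa1.1* (-0.17), *BTG1* (-0.16), *CD63* (-0.16), *rgs3a* (-0.15) and *HSP90AB1* (-0.15). All these values are from wells of 1 library pool that differ in depth, and most of these correlations are weak. At 100 reads only 64 genes, *ins* among them, were found in at least 50% of the wells. For most of the 415 genes most values thus lay under 100 reads. A correlation near 0 for such a gene cannot show that its level is unrelated to *ins*.

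The first axes of variation between wells each held little of it. The first 3 principal components of 2000 genes held 1.4, 1.28 and 1.13% of the variance. The first had a Spearman correlation of 0.59 with the number of genes at 100 reads, of -0.32 with the *ins* share and of -0.10 with total counts. The second had a correlation of 0.62 with the number of genes at 100 reads. The genes weighted most at the high end of the first were at 100 reads in few wells, led by *NSF* and *cebpg* in 3 each and *tnks1bp1* in 1. Its low end had smaller weights, led by *h1fx* in 22 wells. The low end of the second was led by *tnks1bp1* and *zgc:158803*, in 1 well each. The number of genes at 100 reads itself was related only weakly to total counts (0.08) and to the *ins* share (0.008). The 3 wells with the fewest genes at 100 reads had 43, 72 and 73, at 290121, 364442 and 304341 counts, and the 3 with the most had 473, 479 and 503, at 769115, 320379 and 623586 counts.

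Position on the plate gave the following spread. The members lay in 8 rows and 24 columns. Differences between columns accounted for 17.5% of the variance of total counts, 18.2% of that of the heat shock share and 9.51% of that of the *ins* share. Differences between rows accounted for 2.18, 3.31 and 5.65%. With 24 columns a share above 0 is found even where columns do not differ, and no test was made. The median number of spike-in reads by row ranged from 18 in row G to 1466 in row D. Differences between rows accounted for 4.9% of the variance of these reads, which were fewer than 100 in 71 wells.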

How the data were processed

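Reads of the 384-well plates were trimmed with cutadapt, aligned to GRCz11 with GSNAP and counted with featureCounts 2.0.1 on Ensembl release 95 by the authors, and the deposited values are raw counts per gene and well, with a Length column of summed exon bases. Groups came from the labels. The methods' limits on genes and mitochondrial reads leave 171 of 173 control wells, the number the study states, and the *ins* limit leaves 165, which are the wells of every share given in the text. The definition of mitochondrial reads as the 13 coding genes, the members, the gene lists and the other limits were chosen with earlier results of these data known. Names came from the study's own gene tables (493 genes, names only) or a name table (29201 of 32520 genes); 542 of 594 list symbols matched. Levels are CPM over all genes without the 92 spike-ins. The running median of the variation ratio spans 101 genes. No test was run, because the control group is 1 sample. Genes were named by rank in level, variation ratio and correlation, with the 2 to 6 most abundant of each list, and factors and hormones in full; further examples were chosen after their values were seen. Scripts ran in Python with numpy, pandas and scipy. The variation ratio and correlation were tested on simulated data, drawn without the upper and lower groups of wells seen here. That test checks the calculation only, not the genes named here. The 4 wells of no condition entered no group; values of the NC well are set beside those of the members as a description. Some list genes are not reported here by name.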

Additional observations from a re-analysis of the deposited data

Results flagged for a closer look

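The well of plate 1 labelled RNA, which carries no treatment label and entered no description above, had at least 1 read of 8765 genes, beside at most 1753 in any control well. It reached this at 60608 counts on genes, fewer than any member had, with 61 genes at 100 reads and 0.325% of its counts on *ins*. The wells labelled RNA on the other plates had 7445 and 7331 genes at 45492 and 48071 counts.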

How the results depend on the processing

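The pooled *ins* share of 11.56% became 11.72% with at most 20% mitochondrial counts, 11.66% with every gene of the mitochondrial chromosome counted as mitochondrial, 11.52% with at least 1000 detected genes, 11.79% with more than 10000 *ins* counts, 11.25% with no *ins* limit, 11.69% without the 16 wells in which another hormone reached 10000 CPM, 13.26% of counts outside the mitochondrial chromosome and 11.35% as the mean of the wells. The CV of the *ins* share (0.465) was 0.431 with more than 10000 *ins* counts and 0.509 with no *ins* limit. It was 1.29 for *ins* over spike-in counts in 94 wells, which also carries the spread of the spike-in reads. The median of detected genes per well, 3.79% of all genes in the table, was 0.969% at 5 counts, 1.49% after thinning to 100000 counts and 0.658% at 100 counts, a limit chosen after seeing the data. Genes found in every well (39) numbered 21, 16 and 8 under these settings. The share of assessed genes past the variation ratio (1.12%) was 6.19% at a ratio of 2, 2.72% after thinning (25 genes) and 1.6% with a mean of at least 50 CPM (29 genes). Of the 20 genes named for their correlation with *ins*, 13 were named after thinning. No paired analysis was possible because the control group is 1 sample and no comparison between groups was made.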

Other observations

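The control wells left out held 377592 to 780151 counts on genes, within the range of the members. One of those under the *ins* limit had 15509 reads of the somatostatin gene *sst1.1* beside 230 of *ins*, with 1594 reads of *pdx1* and 1591 of *scg3*. Another had 4527 reads of *scg3*, 14 of *pdx1* and 573 genes at 100 reads, more than any member. Of the wells past the mitochondrial limit, the one with 76.9% had 15318 *ins* reads.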
